A study of Mus musculus with 18 samples.

Results

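The genes for the proteins of the cytosolic ribosome were followed through their messenger RNAs in cultured mouse CD4 T cells. They were taken from the deposited expression table by symbol: those starting with Rpl or Rps and a digit, together with Rplp0, Rplp1, Rplp2 and Rpsa, leaving out S6 kinase genes, Rps19bp1 and symbols that mark pseudogenes. This gave 87 of the 36528 entries, 52 for the large subunit (Rpl) and 35 for the small subunit (Rps). Of these, 82 reached 1 nRPKM in at least 3 of 18 libraries and were tested among 13075 genes in all. The 5 below that filter were Rpl10l, Rpl3l, Rpl39l, Rps4l and Rps12l2. The unit nRPKM is taken from the authors' name for the table and read here as reads per kilobase of gene, corrected for depth and further normalized between libraries.

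All cells came from spleens of female NZB/W F1 mice, the cross of NZB and NZW that spontaneously develops a lupus-like disease, aged 21 to 27 weeks and with 30 to 100 mg/dL of protein in the urine. CD4 T cells enriched with an isolation kit were kept in culture for 48 hours, 250000 to a well, and all wells received IL-2 (10 U/mL). Every well also held 25 µg/mL of antibody, either anti-Ox40 of class IgG1, which binds the costimulatory receptor Ox40, or a control Ig of the same class. Beads coated with antibodies to CD3 and CD28, which stand in for antigen and costimulation, were left out (no beads) or added at 0.1 (low beads) or 1 (high beads) per cell. The 6 groups of 3 libraries were therefore anti-Ox40 and control Ig, each with no, low and high beads. The labels do not tell whether the 3 libraries of a group are separate mice or cultures. Each p-value thus reflects the scatter among these libraries alone, and that scatter may be technical.

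A ribosome joins a small subunit, which reads the messenger RNA, to a large subunit, which links amino acids. Each subunit is built in the nucleolus from ribosomal RNA and roughly equal amounts of every ribosomal protein, and activated T cells are known to make more ribosomes as they grow and divide. Messenger RNAs of ribosomal proteins in mammals begin with a cytosine followed by a run of pyrimidines, the 5′ terminal oligopyrimidine tract, through which mTOR controls their translation. Most of these genes have processed pseudogenes in the mouse genome, which bears on how their reads can be assigned.

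Start sites of 10 genes on which the results turn are shown because they carry the tract, or lack it at the annotated start, and because Rps27 and Rps27rt share much of theirs. Each line gives 30 bases of RefSeq sequence on build GRCm38.p6, of which 12 lie before the annotated start. Capitals mark a C within 5 bases of the start, together with the unbroken run of at least 4 C or T that follows it. Rpl27a (chr7:109519183-109519212, plus strand), Rpl15 (chr14:18270969-18270998, minus strand) and Rpl35 (chr2:39005114-39005143, minus strand) were higher with beads and had tracts of 17, 13 and 11 bases. Rpl41 (chr10:128549151-128549180, minus strand) and Rplp0 (chr5:115559455-115559484, plus strand) were also higher and had no such letters at the annotated start. Rps18 (chr17:33955648-33955677, minus strand), Rps27 (chr3:90213631-90213660, minus strand) and its retrogene copy Rps27rt (chr9:114982722-114982751, minus strand) were lower and had tracts of 9, 7 and 6 bases. Rps27l (chr9:66946074-66946103, plus strand, the upstream of its annotated starts, tract of 5 bases) and Rpl7l1 (chr17:46782639-46782668, minus strand) are paralogs called higher with anti-Ox40 at low beads, Rpl7l1 also at high beads. Each of these calls was lost when certain single libraries were left out.
Rpl27a: ttcgtgagctcCTCCCTTTTCCCTTTCTgc
Rpl15: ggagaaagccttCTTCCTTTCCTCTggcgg
Rpl35: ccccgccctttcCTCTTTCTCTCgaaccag
Rpl41: acgggccggctcggaagtgacgacaccgag
Rplp0: ttcgggtttcgaggaccgcctggttctcct
Rps18: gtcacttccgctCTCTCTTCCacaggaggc
Rps27: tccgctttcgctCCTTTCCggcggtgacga
Rps27rt: acttatcccttgCTTTCCggcggtgacgac
Rps27l: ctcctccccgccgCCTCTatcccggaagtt
Rpl7l1: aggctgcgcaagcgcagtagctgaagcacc
The windows of Rps27 and Rps27rt share an identical stretch of 17 of the 30 bases.

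Libraries had an nRPKM sum of 273500 to 348470, and an nRPKM of 1 over 1 kb stood for 26.4 to 46.0 reads. Markers of CD4 T cells (9 of 10 listed genes in the table, among them Cd3e and Cd4) were present in all libraries. Control Ig low-bead replicate 2 stood apart from its group: the nuclear RNA Malat1 was at 173 nRPKM there and at 453 and 435 nRPKM in replicates 1 and 3. Replicate 3 of every group had the highest sum of B cell markers, at 7.37 to 55.3 nRPKM, and the other libraries had 4.44 to 10.7 nRPKM. Markers of other cells moved with the beads, those of lung epithelium at low beads also with the antibody, and their part in the results below was not tested. Myeloid markers (10 of 11 listed genes in the table) summed to 6.16 to 7.21 nRPKM with anti-Ox40 and 6.497 to 13.4 nRPKM with control Ig at high beads, against 256 to 365 and 271 to 312 nRPKM without beads. Lung epithelium markers summed to 29.4 to 54.2 nRPKM with anti-Ox40 and 31.3 to 122 nRPKM with control Ig at high beads, against at most 0.107 nRPKM without beads. At low beads they summed to 63.96, 39.8 and 221 nRPKM with anti-Ox40 and 0.0140, 23.5 and 26.5 nRPKM with control Ig, without overlap. In bulk RNA, fewer cells of a type and less RNA per cell cannot be told apart.

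The summed level of the 87 ribosomal protein genes was higher at each step of bead dose under both antibodies. With anti-Ox40 the sum was 7943, 7876 and 9020 nRPKM without beads, 10373, 10645 and 10442 nRPKM at low beads and 11970, 12543 and 12075 nRPKM at high beads. With control Ig it was 8639, 8594 and 8685 nRPKM without beads, 9466, 11159 and 9438 nRPKM at low beads and 12671, 13064 and 12762 nRPKM at high beads. The 3 doses did not overlap under either antibody, and control Ig low-bead replicate 2, with the low Malat1, was the highest of its group. The sum of all nRPKM values was also higher with beads, so the share held by ribosomal protein genes moved less. At high against no beads that share was 3.48 to 3.60% against 2.88 to 3.22% with anti-Ox40 and 3.69 to 3.799% against 3.05 to 3.12% with control Ig. With control Ig the large subunit genes held 1.91 to 1.999% at high beads against 1.501 to 1.51% without, and the small subunit genes 1.75 to 1.799% against 1.54 to 1.61%. With anti-Ox40 the large subunit genes held 1.86 to 1.905% at high beads against 1.43 to 1.56% without. The small subunit genes there held 1.63 to 1.69% at high beads and 1.45 to 1.66% without, with overlap, and 1.71 to 1.75% at low beads.

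**Figure D1:**
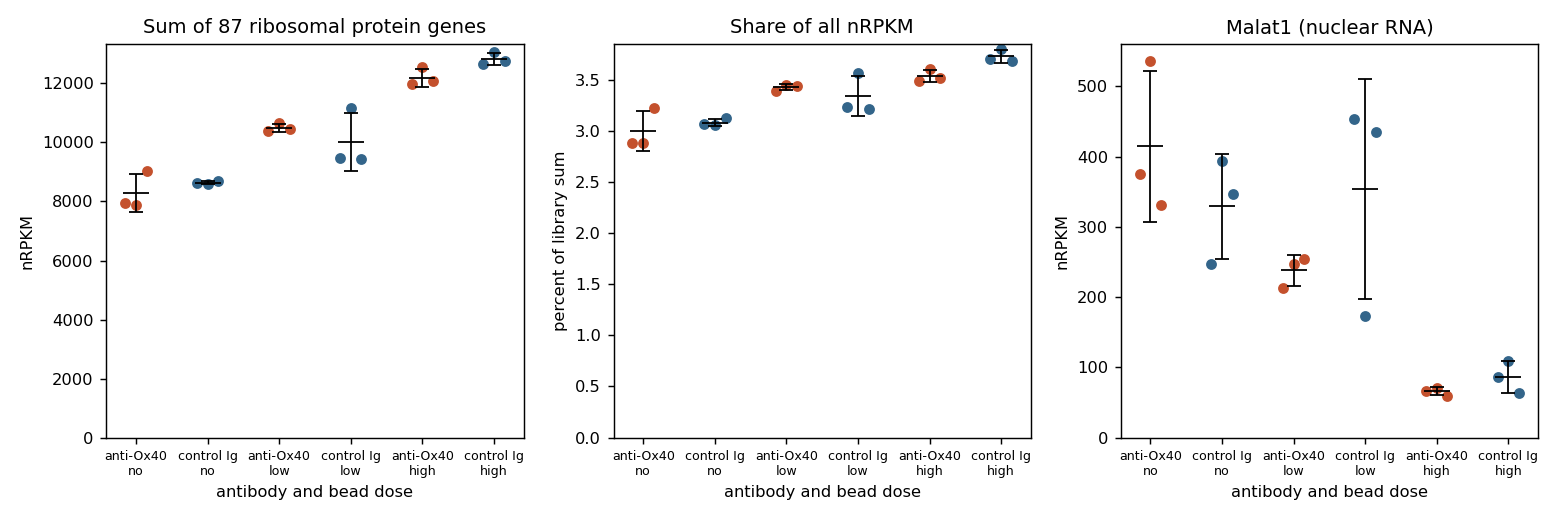
Summed nRPKM of the 87 ribosomal protein genes (left), their share of all nRPKM in percent (middle) and the nuclear RNA Malat1 in nRPKM (right), for each library (points) with group mean and SD (bars, n = 3). Sums lie between 7876 and 13064 nRPKM and are highest at high beads, where Malat1 is lowest, at 59.6 to 109 nRPKM.

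Although the ribosome holds its proteins in near equal numbers, the deposited levels of their genes, which are per kilobase, were far apart. Averaged over 18 libraries, Rpl8 had 1456 nRPKM and Rpl4 had 1039 nRPKM, while Rpl13a and Rps15 had 716 and 703 nRPKM. At the other end of those tested, Rpl26 had 1.27 nRPKM, Rpl21 1.54 nRPKM and Rpl29 1.54 nRPKM. In all, 18 genes averaged at least 100 nRPKM, 34 had 10 to 100, 30 had 1 to 10 and 5 had less than 1. The 5 highest genes held 44.9 to 47.1% of the ribosomal protein sum in every library. Among the genes under 1 nRPKM, Rpl10l, a retrogene known from testis, was listed at 0 in all 18 libraries. Rpl3l, the striated muscle paralog of Rpl3, averaged 0.0757 nRPKM, and Rpl39l, the testis paralog of Rpl39, 0.451 nRPKM. Rps4l averaged 0.377 nRPKM and Rps12l2 0.0158 nRPKM.

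Sequence copies were counted beside the levels. Of 85 genes with an annotated transcript, 82 shared at least one exact stretch of 50 bases with an annotated pseudogene. In 54 genes fewer than 50% of the 50-base windows were free of an exact copy in another gene, and these had a median level of 10.04 nRPKM, against 142 nRPKM for the 28 tested genes with at least 50%. The other 3 genes with at least 50%, Rpl39l, Rpl3l and Rpl10l, did not pass the filter on level (0 to 0.451 nRPKM), and over all 31 the median was 78.02 nRPKM. Rpl8, with 92.1% of its windows free of copies, and Rpl4 with 83.5% were among the highest in level. Rps27 was the lowest in this measure, with 4 of 296 windows free of copies (1.35%), and Rps27rt had 8.92%. Across the 85 genes, level and percentage of windows without a copy had a Spearman rho of 0.415, and level and number of pseudogenes one of -0.397. Genes share library and annotation and are not replicates. How reads that match several genes were counted is not given in the sources used here, so levels of genes with few such windows are uncertain.

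**Figure D2:**
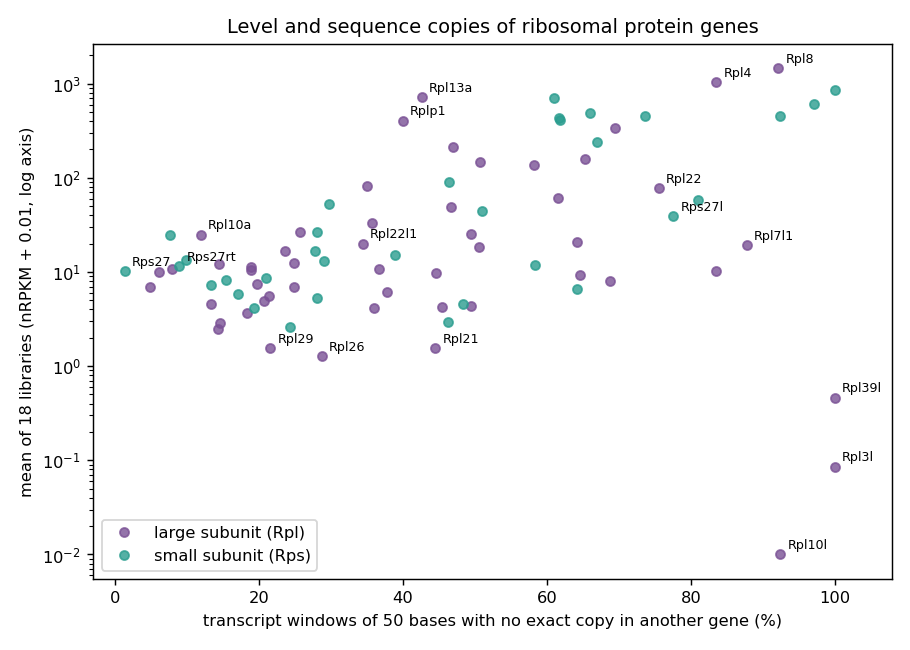
Mean nRPKM over 18 libraries (plus 0.01, log axis) against the percentage of 50-base transcript windows without an exact copy in another gene, for 85 ribosomal protein genes (points; large subunit purple, small subunit green). Genes of high level, such as Rpl8 with 92.1% and Rpl4 with 83.5%, lie to the right, and Rps27 with 1.35% lies at the left edge.

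At high against no beads in control Ig cultures, most ribosomal protein genes were higher and a few were lower. Of 82 tested, 64 passed the test as higher and 4 as lower, where 43.4% of all 13075 genes did so as higher and 38.9% as lower (limma on log2(nRPKM + 1), Benjamini-Hochberg adjusted p under 0.05 over all tested genes). The share called in either direction, 82.9% of ribosomal protein genes, lay near the 82.3% of all genes. Their median log2 fold change was 0.61, against 0.04 for all genes. The quartiles of the ribosomal protein genes were 0.23 and 0.88, and those of all genes -0.50 and 0.63. The large subunit had 41 of 49 genes higher and 1 lower (median 0.66), and the small subunit 23 of 33 higher and 3 lower (median 0.53).

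Rps27l had the largest increase among the 82 genes. It encodes a close relative of Rps27 and is known as a target of p53. Its level was 69.9, 63.9 and 57.99 nRPKM at high beads and 14.7, 16.5 and 15.1 nRPKM without beads in control Ig. All high-bead libraries lay far above all libraries without beads (log2 fold change 1.98, SE 0.09, adjusted p = 1.07e-11). Rpl41, a very small and basic protein of the large subunit, had 295, 371 and 350.3 nRPKM at high beads against 107, 106 and 105 nRPKM without (1.66, SE 0.10, adjusted p = 2.20e-10). Rps29, a zinc-binding protein of the small subunit, had 10.8 nRPKM in each library at high beads and 2.97, 3.38 and 2.12 nRPKM without beads (1.64, SE 0.19). The groups did not overlap in any of these genes, as was true of 84.4% of all tested genes in either direction. Rpl31, which lies at the exit tunnel of the large subunit, had 10.5, 11.6 and 10.4 nRPKM at high beads and 2.93, 3.15 and 3.099 nRPKM without, again without overlap (1.54, SE 0.10). The next in size were Rpl27a (1.38) and Rpl35 (1.37), all called, and Rps26 (1.34), Rpl15 (1.34) and Rpl39 (1.22) were also called.

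Members of the ribosomal stalk, which recruits the elongation factors, moved by different amounts. Rplp0, the base of the stalk, had 201, 192 and 197 nRPKM at high beads in control Ig and 78.6, 80.7 and 81.3 nRPKM without (1.28, SE 0.06, adjusted p = 7.49e-12). Rplp1 and Rplp2, the acidic proteins that pair on it, increased by 0.33 (SE 0.08) and 0.40 (SE 0.07), and both values turn negative when each library is centred on the median of the ribosomal protein genes. The ratio of Rplp0 to Rplp1 was 0.440 ± 0.00485 (SD, n = 3 in each group) with anti-Ox40 and 0.398 ± 0.0397 with control Ig at high beads. Without beads it was 0.203 ± 0.00671 with anti-Ox40 and 0.203 ± 0.00797 with control Ig, and at low beads 0.398 ± 0.0123 and 0.403 ± 0.00261. Rplp0 and Rplp1 thus did not keep one ratio across bead doses.

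A few further genes chosen by name were also higher at high beads in control Ig, as most ribosomal protein genes were. Rps6, the substrate of the S6 kinases, had 10.5, 10.4 and 11.3 nRPKM at high beads and 5.45, 5.27 and 5.44 nRPKM without (0.88, SE 0.10, adjusted p = 5.43e-07). Rpl5 and Rpl11, which bind the p53 regulator Mdm2 together with 5S ribosomal RNA, increased by 0.49 (SE 0.06) and 0.52 (SE 0.10). Rps19, which is mutated in human Diamond-Blackfan anemia, increased by 0.70 (SE 0.07), and Rpsa, also known as the laminin receptor, by 0.89 (SE 0.08). Rps3 increased by 0.53 (SE 0.06) and Rps4x, encoded on the X chromosome, by 0.87 (SE 0.11). Each of these increases was smaller than that of Rps27l.

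Among the most abundant genes, Rpl4 had 1328, 1334 and 1341 nRPKM at high beads and 767, 733 and 765 nRPKM without in control Ig (0.82, SE 0.07). Rpl8 had 1734, 1799 and 1701 nRPKM at high beads and 1333, 1392 and 1363 nRPKM without (0.36, SE 0.07). Neither overlapped between the doses, which held for 84.4% of all tested genes. Over the 82 genes, fold change and level had a Spearman rho of 0.0656. By level, 15 of 18 genes of at least 100 nRPKM were called higher (median 0.64), 26 of 34 genes of 10 to 100 nRPKM (0.63) and 23 of 30 genes below 10 nRPKM (0.56).

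**Figure D3:**
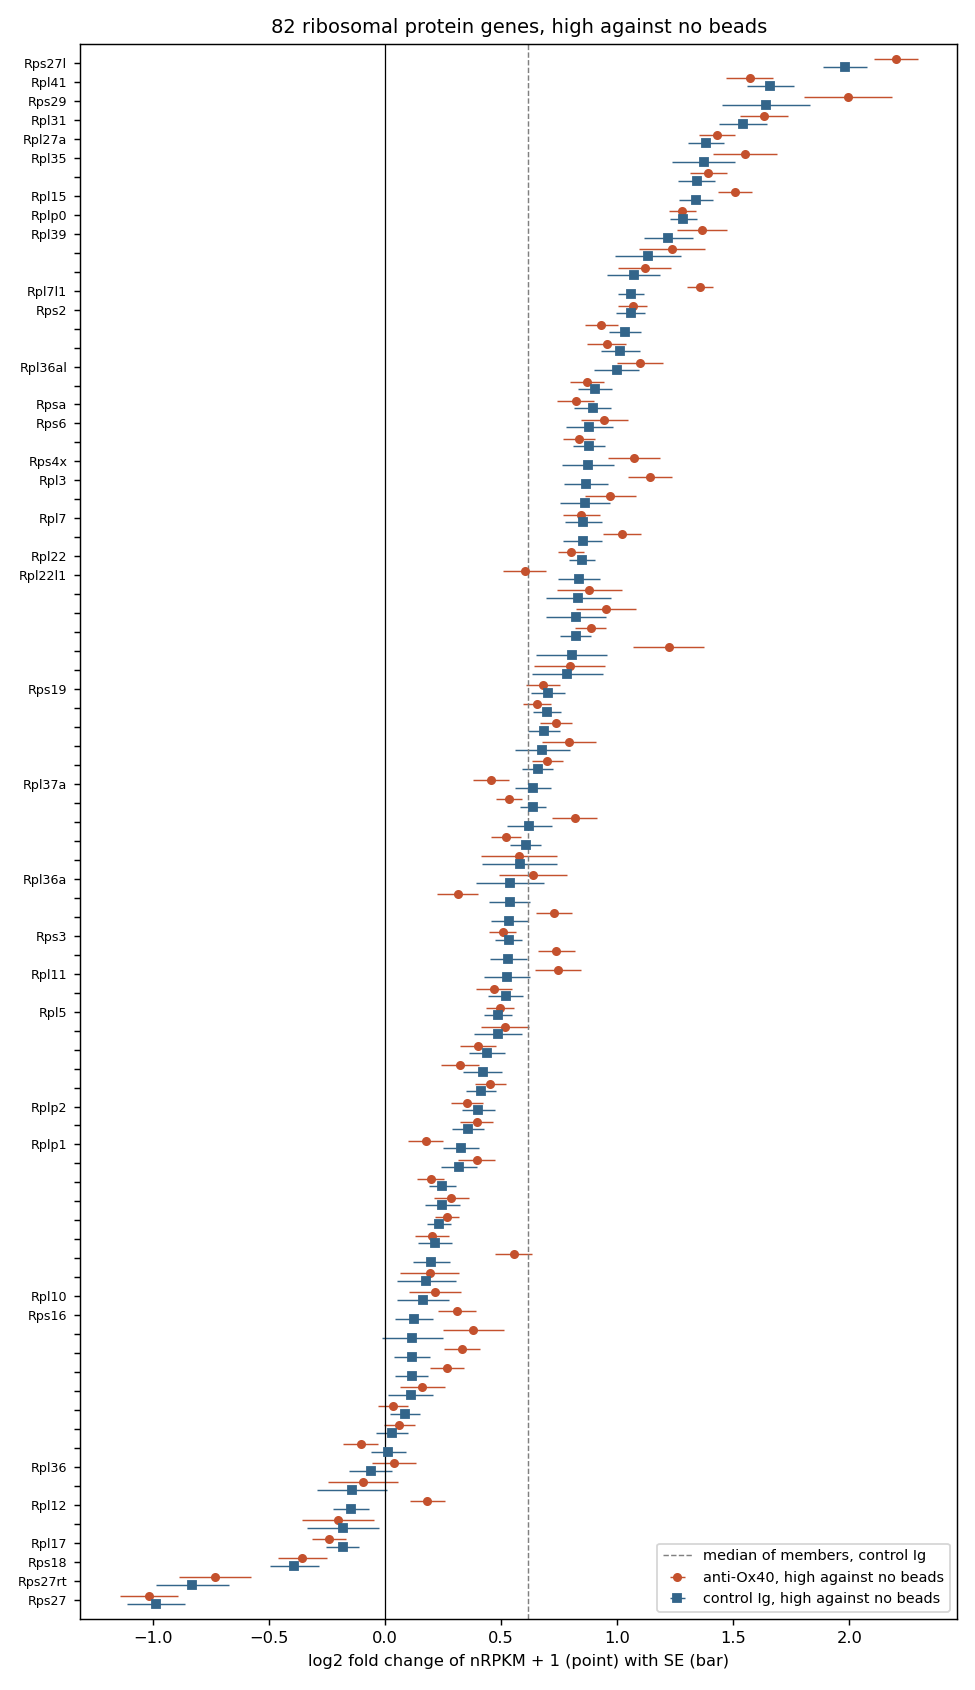
Log2 fold change of nRPKM + 1 (points) with SE (bars) at high against no beads for the 82 tested ribosomal protein genes, with anti-Ox40 (orange circles) and control Ig (blue squares). Most genes lie right of 0 around the control Ig median of 0.61 (dashed line, genes under the naming rule labelled), Rps27l is highest and Rps27 and Rps27rt are lowest under both antibodies.

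The 4 genes that were lower at high against no beads in control Ig were Rps27, Rps27rt, Rps18 and Rpl17. Rps27 had 6.17, 8.71 and 5.33 nRPKM at high beads and 14.5, 15.9 and 12.1 nRPKM without (-0.99, SE 0.13, adjusted p = 1.83e-06). Rps27rt had 6.63, 7.41 and 9.38 nRPKM at high beads and 16.02, 14.4 and 13.3 nRPKM without (-0.83, SE 0.16, adjusted p = 0.000128). Neither overlapped between the doses, which held for 84.4% of all tested genes. Since both have few windows free of copies, the reads of these genes cannot be told apart with certainty. Rps18, in the head of the small subunit, had 6.27, 5.96 and 8.001 nRPKM at high beads and 8.52, 8.82 and 9.99 nRPKM without, with no overlap and with 13.3% of its windows free of copies (-0.39, SE 0.11, adjusted p = 0.00285). Rpl17 fell by 0.18 on the log2 scale (SE 0.07, adjusted p = 0.0287). Its adjusted p was 0.0808 without control Ig no-bead replicate 1, 0.0736 without no-bead replicate 2 and 0.153 without high-bead replicate 3.

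All 4 of these genes have fewer than 50% of windows free of copies. Of the 28 tested genes with at least 50%, 22 were higher and 0 lower at high against no beads in control Ig (median 0.64). Of the 54 with less, 42 were higher and 4 lower (median 0.56). The test of this difference was not made.

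At low against no beads in control Ig, 38 of 82 ribosomal protein genes were higher and 7 lower, where 32.6% of all genes were called higher and 29.8% lower, 62.3% in all. The median was 0.19, against 0.01 for all genes. Rpl27a, a large subunit protein, had 18.8, 21.2 and 22.96 nRPKM at low beads and 10.6, 10.4 and 11.5 nRPKM without, the largest increase of the 82 at this step (0.89, SE 0.08, adjusted p = 8.32e-08). Others with large increases were Rpl31 (0.86), Rpl41 (0.81), Rps27l (0.78), Rpl15 (0.77) and Rplp0 (0.77). The 7 that were lower were Rps27 (-0.50), Rpl12 (-0.48), Rps18 (-0.39), Rps16 (-0.30), Rpl36 (-0.29), Rpl17 (-0.24) and Rplp1 (-0.21). Rplp1 lost its call without no-bead replicate 1 or 2 or low-bead replicate 1 or 3, with adjusted p of 0.05602 to 0.0990, and Rpl36 without no-bead or low-bead replicate 1 (0.0536 to 0.05403). Without control Ig low-bead replicate 2, 12 genes were called lower.

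At high against low beads in control Ig, 67 of 82 genes were higher and 2 lower, where 40% of all genes were called higher and 32.5% lower, 72.5% in all. The median was 0.39, against 0.04 for all genes. The 6 largest increases were Rps27l (1.21), Rps29 (1.01), Rps2 (0.87), Rpl41 (0.85), Rpl22l1 (0.84) and Rpl39 (0.83), and Rps27rt (-0.56) and Rps27 (-0.49) were lower. Rpl12, which sits at the base of the stalk, was lowest at the middle dose in control Ig, with 21.4, 21.6 and 19.7 nRPKM without beads, 14.8, 15.1 and 14.1 nRPKM at low beads and 19.5, 18.6 and 18.2 nRPKM at high beads. The low-bead libraries lay below all others. It fell by 0.48 at low against no beads (SE 0.08, adjusted p = 5.92e-05) and increased by 0.33 at high against low beads (SE 0.08, adjusted p = 0.00115). Rplp1, whose lower call at low beads depended on single libraries, increased by 0.54 (SE 0.08) at the upper step.

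With anti-Ox40, high against no beads gave 69 of 82 genes higher and 4 lower. Of all genes, 45.2% were higher, 39.3% lower and 84.5% called in either direction. The median of the ribosomal protein genes was 0.65, against 0.06 for all genes. The bead effects under the antibodies have no library in common. All 64 genes called higher with control Ig were also called higher with anti-Ox40, 4 were called lower under both, 5 were called higher with anti-Ox40 and not with control Ig, and 9 were called under neither. Across the 82 genes the fold changes had a Pearson r of 0.972 and a Spearman rho of 0.962, as a description over genes measured in the same libraries. With control Ig 82.3% of all genes were called in either direction. The overlap of calls and the correlations are not given over all genes, so they do not set the ribosomal protein genes apart. The 5 called with anti-Ox40 and not with control Ig were Rpl12 (0.18), Rpl23a (0.38), Rpl30 (0.33), Rps16 (0.31) and Rps24 (0.27), and none of them passed the test of a difference in antibody effect between doses. Rps27l again had the largest increase, with 79.7, 76.3 and 66.5 nRPKM at high beads and 14.1, 14.2 and 17.9 nRPKM without (2.20, SE 0.09, adjusted p = 2.31e-12).

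How far the ribosomal protein genes moved depended on the scale. The deposited values are close to a median-ratio scale, with factors of 1.0107 to 1.0114 in all libraries, and their library sums were higher with beads. When every library was given the same sum, as TPM values would have, the median of all genes at high against no beads became -0.20 with anti-Ox40 and -0.21 with control Ig, and that of ribosomal protein genes 0.38 and 0.34. The gap between the medians with anti-Ox40 was 0.58 on that scale and 0.58 on the deposited one, and with control Ig 0.55 and 0.58. On the equal-sum scale 52 genes were higher and 10 lower with anti-Ox40, so that 83.9% of those called were higher, where it was 94.5% on the deposited scale. With control Ig the counts were 52 and 13, or 80% against 94.1%. At low against no beads with control Ig they were 34 and 12, or 73.9% against 84.4%.

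Of the 241 pairs of a named gene and a comparison, 1 with a call on either scale turned, Rplp1 with anti-Ox40 at high against no beads. Its log2 fold change was -0.15 on equal sums and 0.17 on the deposited scale (adjusted p = 0.0437, called in 7 of 18 fits that each left out 1 library). Genes not named turned as well. With anti-Ox40, 75 of 82 fold changes were above 0 on the deposited scale, and 10 genes were called lower on equal sums. A further scale gave every library the same median log2 level of the tested ribosomal protein genes. With every library centred on that median, 26 genes were higher and 35 lower at high against no beads with anti-Ox40, and 37 were higher and 24 lower with control Ig. The medians of their fold changes were then -0.05 and 0.14, so these counts are not taken against a median of 0. At high against low beads in control Ig the counts were 17 and 20. With a nuclear RNA score in the model, the counts at high against no beads were 1 higher and 3 lower with anti-Ox40 and 6 higher and 3 lower with control Ig. That score, the mean log2 level of listed nuclear RNAs such as Malat1, was 2.90 to 2.97 with anti-Ox40 and 3.08 to 3.19 with control Ig at high beads, against 4.42 to 4.63 and 4.38 to 4.49 without beads, so that it and the bead dose cannot be told apart.

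**Figure D4:**
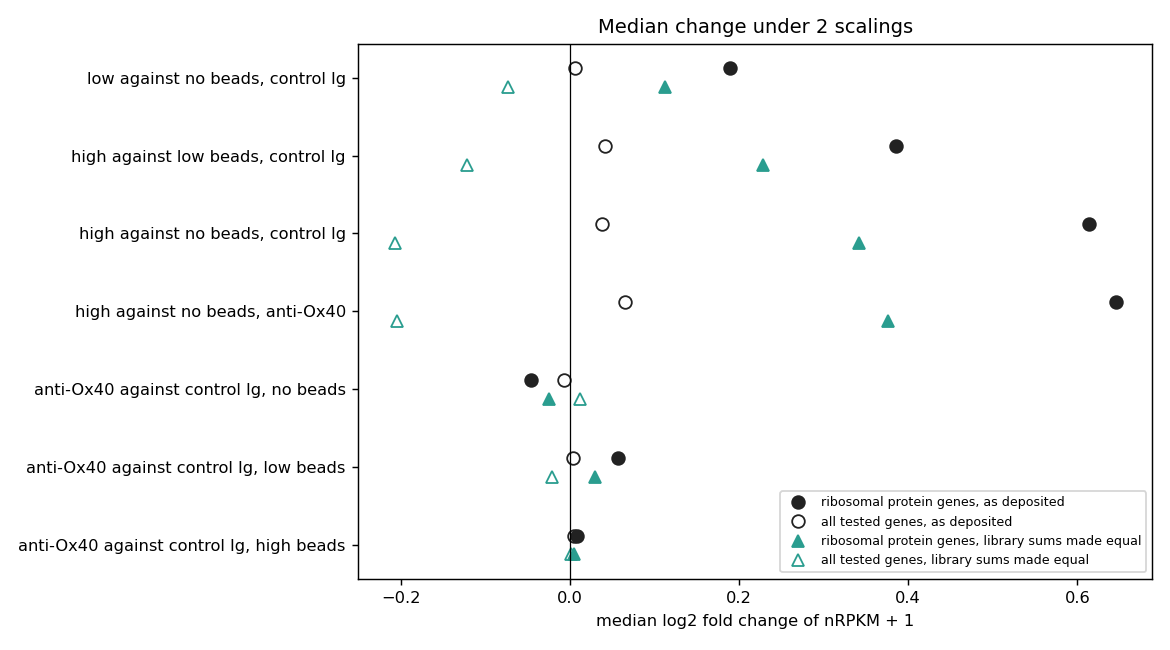
Median log2 fold change of nRPKM + 1 over 82 ribosomal protein genes (filled) and all 13075 tested genes (open), on the deposited scale (black circles) and with equal library sums (green triangles), for 7 comparisons. Equal sums move both medians to the left in the bead comparisons, for all genes at high against no beads with control Ig to -0.21, and keep the ribosomal protein genes to the right of all genes there.

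Paralogs were compared as ratios within each library, with SD over n = 3 libraries in each group. With anti-Ox40 the ratio of Rps27l to Rps27 was 1.06 ± 0.223 without beads, and it was 4.09 ± 0.210 at the low and 11.1 ± 1.63 at the high dose. With control Ig it was 1.10 ± 0.131 without beads, and 2.80 ± 0.231 at the low and 9.85 ± 2.19 at the high dose. The paralog thus became the more abundant of the pair per kilobase as bead dose increased, as far as the few Rps27 windows free of copies allow. Rpl22, whose loss blocks the development of αβ T cells in mice, had 56.1, 54.5 and 56.5 nRPKM without beads, 69.3, 84.3 and 72.2 nRPKM at low beads and 100.1, 100.2 and 103 nRPKM at high beads in control Ig. Its paralog Rpl22l1 had 16.96, 17.1 and 14.8 nRPKM without beads, 13.9, 18.1 and 16.7 nRPKM at low beads and 28.1, 33.2 and 28.3 nRPKM at high beads. Rpl22 increased by 0.42 at low against no beads and by 0.43 at high against low beads (SE 0.05), and Rpl22l1 had values of -0.01 (adjusted p = 0.949) and 0.84 (adjusted p = 6.86e-07).

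Rpl36al and its partner Rpl36a increased by 1.00 (SE 0.10) and 0.54 (SE 0.15) at high against no beads in control Ig. Rpl3, which helps form the catalytic center, increased by 0.87 (SE 0.09) and Rpl7 by 0.85 (SE 0.08). Rpl10 had 11.6, 10.8 and 11.3 nRPKM at high beads and 9.63, 12.2 and 8.32 nRPKM without, and the groups overlapped (0.16, SE 0.11, adjusted p = 0.185). The ratio of Rpl7l1 to Rpl7 at high beads was 0.509 ± 0.0365 with anti-Ox40 and 0.418 ± 0.00513 with control Ig (SD, n = 3 each), and without beads it was 0.344 ± 0.0215 and 0.352 ± 0.0138.

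**Figure D5:**
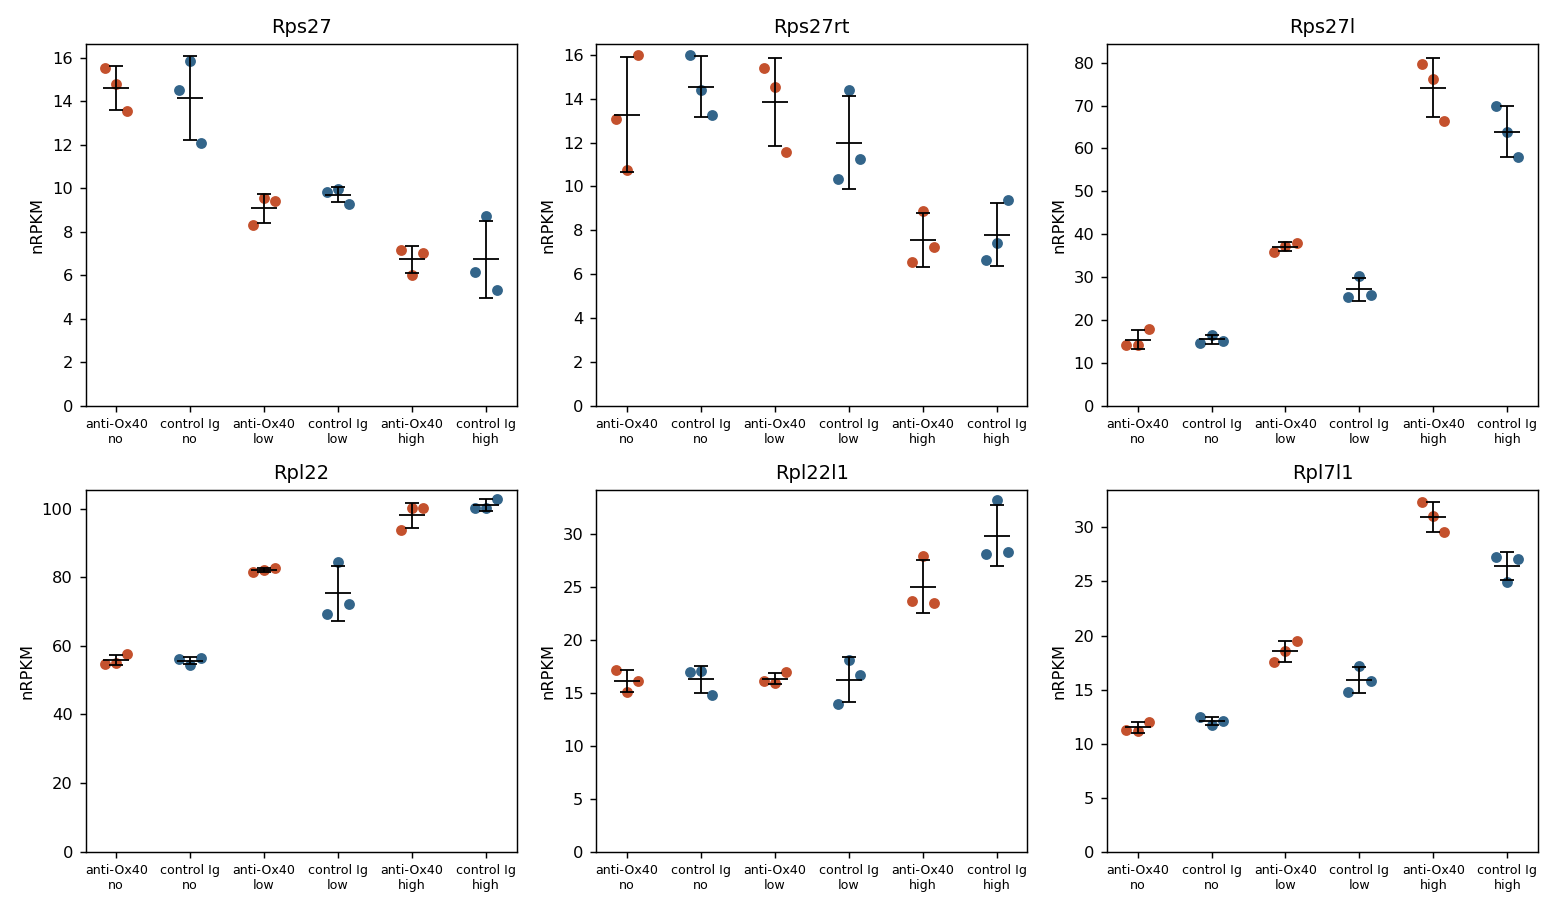
Levels in nRPKM of Rps27, its retrogene Rps27rt, its paralog Rps27l, Rpl22, its paralog Rpl22l1, and Rpl7l1 in each library (points) with group mean and SD (bars, n = 3), by antibody and bead dose. Rps27l lies at 57.99 to 79.7 nRPKM at high beads, where Rps27 is at 5.33 to 8.71 nRPKM.

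Between the antibodies, few ribosomal protein genes passed the test at any bead dose. Without beads, 0 of 82 genes were called by limma, where 0.138% of all genes were called higher and 0% lower, 0.138% in all. There 1 of the 82 genes had an unadjusted p under 0.05, as did 519 of all 13075 genes, and the median was -0.05 against -0.01 for all genes. At low beads 3 genes were higher with anti-Ox40 and 0 lower, against 6.15% and 3.44% of all genes, 9.59% in all. The share of ribosomal protein genes called higher, 3.66%, was below that background, and the median was 0.06, against 0.00 for all genes.

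The 3 genes called at low beads were Rps27l, Rps2 and Rpl7l1. Rps27l had 35.9, 37.2 and 38.04 nRPKM with anti-Ox40 and 25.4, 30.2 and 25.9 nRPKM with control Ig (0.44, SE 0.09, adjusted p = 0.0154). Rps2, a small subunit protein at the messenger RNA entry, had 7.92, 7.93 and 7.33 nRPKM with anti-Ox40 and 6.75, 6.33 and 6.25 nRPKM with control Ig (0.23, SE 0.06, adjusted p = 0.0367). Rpl7l1, a relative of Rpl7 that in human cells is found on precursors of the large subunit, had 17.6, 18.5 and 19.5 nRPKM with anti-Ox40 and 14.7, 17.2 and 15.8 nRPKM with control Ig (0.21, SE 0.06, adjusted p = 0.0338). In each of the 3 the groups did not overlap, as was true of 25.9% of all tested genes in either direction. These calls rest on single libraries. None of the 3 passed without control Ig low-bead replicate 1 or 3, or without anti-Ox40 low-bead replicate 2 or 3, and Rps2 did not pass without anti-Ox40 low-bead replicate 1 either. The adjusted p in these fits was 0.0513 to 0.0815 for Rps27l, 0.05905 to 0.139 for Rps2 and 0.0903 to 0.1598 for Rpl7l1. Without control Ig low-bead replicate 2, the library with low Malat1, 16 ribosomal protein genes were called higher with anti-Ox40. None of the 3 passed with the nuclear RNA score in the model, with only the groups compared in the fit, or without the library richest in B cell markers in each group (adjusted p = 0.149, 0.342 and 0.395 for Rps27l, Rps2 and Rpl7l1 in this last fit). In the same comparison 6 of 6 tested lung epithelium markers were higher with anti-Ox40 (median 1.54) and 2 of 4 tested nuclear RNAs were lower (median -0.27). The part of the lung epithelium markers in these calls was not tested.

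At high beads 1 gene was higher and 1 lower with anti-Ox40, against 14.4% and 11.6% of all genes, 26% in all. The medians were 0.01 for ribosomal protein genes and 0.00 for all genes. Rpl7l1 had 32.3, 31.1 and 29.6 nRPKM with anti-Ox40 and 27.2, 24.9 and 27.04 nRPKM with control Ig (0.22, SE 0.06, adjusted p = 0.008604). All anti-Ox40 libraries lay above all control Ig libraries. In this comparison 43.3% of all tested genes had groups without overlap in either direction. The adjusted p for Rpl7l1 was 0.0509 without control Ig high-bead replicate 2 and 0.0503 without anti-Ox40 high-bead replicate 1. It was 0.366 on the scale centred on the ribosomal protein genes and 0.0715 with the nuclear RNA score in the model. Rpl37a, a zinc-binding large subunit protein, had 65.7, 65.5 and 66.5 nRPKM with anti-Ox40 and 74.9, 78.6 and 77.8 nRPKM with control Ig, without overlap (-0.22, SE 0.08, adjusted p = 0.0446). Its call was kept in 6 of the 18 fits that each left out 1 library. On the equal-sum scale 1 gene was higher and 4 were lower, so that 20% of those called were higher, against 50% on the deposited scale.

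At high beads the sum over ribosomal protein genes was lower with anti-Ox40 and the median of their fold changes was just above 0. The sum was 11970 to 12543 nRPKM with anti-Ox40 and 12671 to 13064 nRPKM with control Ig, without overlap. The median log2 level of the tested genes was 4.21 to 4.40 with anti-Ox40 and 4.13 to 4.27 with control Ig, with overlap. By level, 18 of the 18 genes of at least 100 nRPKM had a fold change below 0 (median -0.09), and none of them passed the test. Of the 34 genes of 10 to 100 nRPKM, 21 had one above 0 (median 0.02), as did 21 of the 30 below 10 nRPKM (median 0.05). Of all tested genes, at any level, 51% had a fold change above 0 in this comparison. The share among other genes of at least 100 nRPKM is not given, so these counts do not set the ribosomal protein genes apart. Genes measured in the same libraries are not replicates.

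Whether the antibody effect itself differed between bead doses was tested directly. For low minus no beads, limma called 0 of 82 genes, against 0.26% of all genes as higher and 0.00765% as lower, 0.268% in all. There 8 ribosomal protein genes had an unadjusted p under 0.05, as did 2307 of all 13075 genes. For high minus low beads it called 0, against 1.47% and 1.7% of all genes, 3.17% in all. Here 7 had an unadjusted p under 0.05, as did 2638 of all 13075 genes. For high minus no beads 1 gene was called higher, Rpl7l1, against 6.4% of all genes as higher and 4.7% as lower, 11.1% in all. Rpl7l1 had 11.3, 11.2 and 12.05 nRPKM with anti-Ox40 and 12.5, 11.8 and 12.1 nRPKM with control Ig without beads, and its antibody effect was 0.22 at high beads and -0.07 without (difference 0.29, SE 0.08, adjusted p = 0.0292). Its call was kept in 10 of 18 fits that each left out 1 library, and the adjusted p in the others was 0.0508 to 0.0859. It was also lost without the filter, on the scale centred on the ribosomal protein genes, with the nuclear RNA score and without the libraries richest in B cell markers (adjusted p from 0.0528 to 0.531). Rps25 (0.35, SE 0.11, adjusted p = 0.0511) and Rpl12 (0.33, SE 0.11, adjusted p = 0.0642) came next and did not pass. Without control Ig low-bead replicate 2, 13 genes were called for low minus no beads and 9 for high minus low beads.

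Lists of genes that build or use ribosomes were counted in the same fit. At high beads 34 of 38 ribosome biogenesis genes were higher with anti-Ox40 and 0 lower (median 0.36), where 14.4% of all tested genes were higher and 11.6% lower. They included Ddx21 (0.45, SE 0.07), an RNA helicase of the nucleolus, Nolc1 (0.55, SE 0.09), a nucleolar chaperone of small nucleolar RNPs, and Wdr43 (0.43, SE 0.06), a subunit of the small subunit processome. Of 30 tested translation initiation factors 21 were higher and 0 lower (median 0.24), among them the cap-binding protein gene Eif4e (0.39, SE 0.06) and Eif2s2 (0.39, SE 0.06). Of 6 chaperones of ribosomal proteins 4 were higher and 0 lower, with Heatr3, which helps to import Rpl5, at 0.39. Of 77 mitochondrial ribosomal protein genes 19 were higher and 1 lower (median 0.11). Of 17 other messenger RNAs known to carry the pyrimidine tract 1 was higher, the nucleolar chaperone Npm1 (0.30, SE 0.07), and 0 lower (median 0.01). In the same comparison 5 of 9 CD4 T cell markers were lower with anti-Ox40 and 0 higher (median -0.22), and 2 of 4 tested nuclear RNAs were lower (median -0.26). Their part in these counts was not tested.

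Among 17 tested genes of the TOR pathway 4 were higher and 1 lower with anti-Ox40 at high beads (median 0.06), against 14.4% and 11.6% of all tested genes. Larp1, which binds the pyrimidine tract, was higher (0.37, SE 0.05, adjusted p = 0.000213), and the stress-induced inhibitor Sesn1 was lower (-0.58, SE 0.11, adjusted p = 0.001396). At low beads 7 of 38 biogenesis genes, 11 of 30 initiation factors and 13 of 77 mitochondrial ribosomal protein genes were higher with anti-Ox40, against 6.15% of all tested genes, and 0, 1 and 0 were lower, against 3.44%. At high against no beads in control Ig, 36 biogenesis genes were higher and 1 lower (median 0.77), against 43.4% and 38.9% of all tested genes, and 28 initiation factors higher and 1 lower (0.84). In the same comparison 69 mitochondrial ribosomal protein genes were higher and 4 lower (0.84), and 16 tract-bearing messenger RNAs higher and 1 lower (0.83).

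Further genes of the cytosolic ribosome carry other names. Fau, which encodes a fusion of a ubiquitin-like protein with a ribosomal protein, and Gnb2l1, the gene of the scaffold Rack1 on the small subunit, were both higher at high against no beads in control Ig. Gnb2l1 had 1706, 1662 and 1674 nRPKM at high beads and 932, 919.7 and 938 nRPKM without (0.85, SE 0.06, adjusted p = 1.89e-09). These groups did not overlap, which held for 84.4% of all tested genes. Fau increased by 0.77 (SE 0.12). With anti-Ox40 against control Ig at high beads, neither was called, with fold changes of -0.08 for Gnb2l1 and -0.05 for Fau.

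The start tract shown above for single genes was counted over the ribosomal protein genes with an annotated start. Of 65 matched to a RefSeq start, 30 (46.2%) had a C within 5 bases of it followed on the gene's strand by at least 4 C or T, against 5718 of 27025 genes (21.2%). Of the 30 tested genes with the tract, 24 were higher and 3 lower at high against no beads in control Ig (median 0.67). Of the 32 without it, 26 were higher and 0 lower (median 0.63). Of all 82 tested ribosomal protein genes 64 were higher and 4 lower, and of all tested genes 43.4% were higher and 38.9% lower. A difference between genes with and without the tract was not tested. The match is to letters around an annotated start and is not a measured transcription start.

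Small nucleolar RNA genes, which guide modification of ribosomal RNA, lie in introns of many ribosomal protein genes. The table held 33 of them in 23 host genes, and 32 of the 33 were tested. At high against no beads 8 were higher and 7 lower with anti-Ox40, where 45.2% of all tested genes were higher and 39.3% lower. With control Ig 5 were higher and 6 lower, where 43.4% of all tested genes were higher and 38.9% lower. At low against no beads in control Ig 0 were higher and 7 lower, against 32.6% and 29.8% of all tested genes. The table does not let reads from a host intron be told apart from the small RNA itself.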

How the data were processed

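RNA of cultured CD4 T cells was sequenced in 18 TruSeq libraries. The authors deposited one table that they named nRPKM, read here as RPKM values with a further normalization between libraries. The aligner GSNAP and the build GRCm38 are named, per the submitters' processing notes. Not given in the sources used here are the annotation, the counting of reads with several matches and the scaling of the values. Reads shared between ribosomal protein genes and their pseudogenes may be split or lost. Low values of short genes were whole multiples of 1 read within 0.1 read, which gave the reads per nRPKM.

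Genes with at least 1 nRPKM in at least 3 libraries entered limma 3.58.1 in R 4.3.3 (trend, a mean for each of 6 groups, 12 residual degrees of freedom) on log2(nRPKM + 1). A fold change on that scale understates the change of low genes. P-values are two-sided and Benjamini-Hochberg adjusted over all 13075 genes, with calls below 0.05. The fitting step was tested on simulated data. Pearson correlations between libraries of a group were 0.989 to 0.995. Named are the 6 called genes with the largest changes in each direction of a comparison, the 3 with the smallest adjusted p for each difference of effects, the paralogs with their partners, stalk genes and Rpsa, Rps3, Rps6, Rps19, Rpl5 and Rpl11. For other lists up to 3 called genes are named. Rpl4, Rpl8, Rpl13a, Rps15, Rpl21, Rpl26, Rpl29, Rps25, Rps26 and the 5 genes called with anti-Ox40 and not with control Ig were named after their values were seen. A few genes are not reported here by name. The ribosomal protein genes and all lists were chosen with earlier results of these data known. Sequence windows used GENCODE vM21 transcripts and RefSeq starts with Python 3.11.15, pandas 2.3.3 and numpy 2.4.6. Alternatives were another pseudocount, no filter, 4 other scalings, no trend, a nuclear RNA covariate, only the groups compared, each library left out, and, chosen after seeing the data, the library with most B cell markers in each group left out or taken as a block.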

Additional observations from a re-analysis of the deposited data

Results flagged for a closer look

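The antibody effect on Rpl7l1 differed between high and no beads by 0.29 on the log2 scale (limma, adjusted p = 0.0292), which is what marks it for a closer look. The gene was 0.22 higher with anti-Ox40 at high beads, in 3 of 3 libraries above all control Ig libraries, and at -0.07 without beads. At high beads the groups did not overlap in 43.3% of all tested genes, counting both directions. The call was kept in 10 of 18 fits that each left out 1 library. It was lost without the filter (adjusted p = 0.0528), on the scale centred on the ribosomal protein genes (0.531), with the nuclear RNA score in the model (0.1595) and without the library with most B cell markers in each group (0.134). Over the settings with all libraries that kept the call, adjusted p was at most 0.0377.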

How the results depend on the processing

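Values are counts of 82 ribosomal protein genes called. No paired analysis was possible because the labels give no replicate numbers shared between the groups, and the numbers used here only name libraries in listed order. Median-ratio scaling and a pseudocount of 0.1 kept direction and call for all 241 pairs of a named gene and a comparison. Without the filter, the antibody comparison had 1 higher at low beads and 0 lower at high beads, and 0 differed for high minus no beads. Without the trend, 0 was lower at high beads. With equal library sums, lower calls were 12 at low against no beads, 10 at high against no beads with anti-Ox40, 13 with control Ig and 4 between antibodies at high beads, and 2 differed for high minus no beads. With ribosomal protein genes left out of those sums these counts were 12, 9, 12, 4 and 2. Rplp1 with anti-Ox40 turned to -0.15 and -0.14. Fitting only the groups compared gave 0 higher at low beads, 2 higher and 2 lower at high beads, 1 for high minus low and 3 for high minus no beads. Without the library with most B cell markers in each group, chosen after seeing the data, 0 were higher at low beads and 0 differed for high minus no beads. With that library as a block instead, also chosen after seeing the data, 2 were higher with anti-Ox40 at high beads and 2 differed for high minus no beads, and the other counts stayed within 1.5 times. The cause of these shifts was not tested.

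Centring each library on the ribosomal protein genes gave, at high against no beads, 26 higher and 35 lower with anti-Ox40 and 37 and 24 with control Ig. It gave 17 and 20 at high against low beads, and between antibodies 1 higher at low beads, 0 higher and 22 lower at high beads and 6 for high minus no beads. It gives every library the same median log2 level of the tested ribosomal protein genes, while the median of their fold changes can differ from 0. That median was 0.137 at high against no beads with control Ig and -0.137 between antibodies at high beads. Centring turned Rpl22l1 -0.093, Rpl36a -0.057, Rpl10 -0.48, Rplp1 -0.52, Rplp2 -0.34, Rpl5 -0.20, Rps3 -0.19 and Rps19 -0.013 at high against no beads with anti-Ox40. With control Ig it turned Rpl10 -0.31, Rplp1 -0.15 and Rplp2 -0.075, and at high against low beads Rpl7 -0.040, Rpl36a -0.028, Rpl10 -0.15, Rplp2 -0.075, Rps6 -0.11, Rpl5 -0.17 and Rps3 -0.11. The nuclear RNA score gave 1 higher with anti-Ox40 and 6 with control Ig at high against no beads, 2 at high against low and 16 at low against no beads. Between antibodies it gave 0 higher at low beads, 0 higher and 17 lower at high beads, 1 for high minus low and 0 for high minus no beads. It turned Rps29 -0.76, Rps18 0.079, Rpl22l1 -0.065, Rpl22 -0.023, Rpl7 -0.41, Rplp1 -0.56, Rplp2 -0.0065, Rpsa -0.19, Rps6 -0.64, Rpl11 -0.073, Rps3 -0.27 and Rps19 -0.21 at high against no beads with anti-Ox40. With control Ig it turned Rps29 -0.67, Rpl7 -0.20, Rplp1 -0.29, Rps6 -0.45, Rpl11 -0.16, Rps3 -0.12 and Rps19 -0.045, and at high against low beads Rps29 -0.70, Rpl41 -0.033, Rpl22 -0.088, Rpl7 -0.40, Rps4x -0.089, Rplp0 -0.053, Rpsa -0.022, Rps6 -0.67, Rps3 -0.16 and Rps19 -0.10.

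Leaving out 1 library at a time gave, at high against no beads, 65 to 69 higher with anti-Ox40, and 63 to 65 higher and 3 to 5 lower with control Ig. It gave 58 to 68 higher at high against low beads, and 34 to 42 higher and 5 to 12 lower at low against no beads. Between antibodies, 0 to 16 were higher at low beads (16 without control Ig low-bead replicate 2; 0 without control Ig low-bead replicate 1, control Ig low-bead replicate 3, anti-Ox40 low-bead replicate 2 or anti-Ox40 low-bead replicate 3). At high beads 0 to 5 were higher (5 without anti-Ox40 high-bead replicate 3; 0 without control Ig high-bead replicate 2 or anti-Ox40 high-bead replicate 1) and 0 to 4 lower (4 without control Ig low-bead replicate 2). For differences of effect the ranges were 0 to 13 for low minus no beads, 0 to 9 for high minus low (both highest without control Ig low-bead replicate 2) and 0 to 3 for high minus no beads (3 without anti-Ox40 low-bead replicate 2 or anti-Ox40 high-bead replicate 3).

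The main limits are reads shared with pseudogenes, whose counting is not known here, the scale of the deposited values, and 3 libraries per group of unknown origin. Genes near 1 nRPKM rest on few reads, and a fold change on log2(nRPKM + 1) understates theirs.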
